A study of Canis lupus familiaris with 29 samples.

Results

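The genes followed here are best known from liver, kidney or exocrine pancreas, and were measured in dog adrenal tissue and its tumors: FGA, FGB, FGG, C4BPA, CP, CREB3L3, TDO2, CELA1, SLC22A6 and HAO2. They were chosen by name from measured values of these same samples, namely their level in normal adrenal medulla (NAM) against tumors and their relation to CYP11A1 across NAMs. All 10 were found among the 30951 genes of the count table. Because these values chose the genes, their difference between tumors and NAMs and their relation to CYP11A1 across NAMs are given as a description, with no test.

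RNA was sequenced from 10 NAMs of healthy research dogs and from 19 pheochromocytomas and paragangliomas (PPGLs) of client-owned dogs, tumors that arise from chromaffin cells. The tumors comprised 7 of PPGL group 1 and 12 of PPGL group 2, groups that the study drew from a principal component analysis of these same samples. The sample labels state no treatment, genotype, breed or age for any group. NAMs came from research dogs and PPGLs from client-owned dogs, so tissue and origin cannot be told apart. Total counts per sample were 19258054 to 35918182 in NAMs, 18493540 to 31919833 in group 1 and 18208718 to 24569667 in group 2. A level of 3 counts in a library was used as the limit of detection. It equals a CPM (counts scaled to library size after TMM normalization) of 0.0779 to 0.175 and covers counting error only.

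As background, hepatocytes secrete fibrinogen, the clotting protein assembled from alpha, beta and gamma chains that FGA, FGB and FGG encode, and C4b-binding protein, a complement inhibitor whose alpha chain is C4BPA. CP encodes ceruloplasmin, a copper-carrying oxidase of iron, CREB3L3 a membrane-bound transcription factor of liver and intestine, and TDO2 the hepatic enzyme that opens the ring of tryptophan. CELA1 is a serine protease of the elastase family, SLC22A6 the organic anion transporter of the proximal tubule, and HAO2 a peroxisomal hydroxyacid oxidase of kidney and liver. CYP11A1 cleaves the side chain of cholesterol in steroid-producing cells, which in the adrenal lie in the cortex around the medulla.

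The NAM libraries held RNA of both medulla and cortex. The 15 genes of the medullary list, led by CHGB, summed to 19090 to 100482 CPM in the NAMs. The 12 of 13 cortical genes found by name summed to 11610 to 59180 CPM, and STAR, the cholesterol carrier of steroid synthesis, was the most abundant per kb. CYP11A1 itself had 2408 to 10622 CPM in NAMs (median 6226), 14.3 to 4540 in group 2 (median 475) and 0 to 34.4 in group 1 (median 0.613). The cortical sum was 269 to 30179 CPM in group 2 and 119 to 1187 in group 1, so the cortical genes moved with the groups compared below. Fewer cells of a type and less RNA per cell cannot be told apart in these bulk samples.

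NAM replicate 8 stood apart from the other NAMs. It had the highest CYP11A1 (10622 CPM, against 8341 in the next NAM) and the highest cortical sum of all samples (59180 CPM). Of the 8 genes above the 3-count level in most NAMs, 7 had their highest NAM value in this library, SLC22A6 being the exception. Among 13474 genes with a mean NAM level of at least 1 CPM, 2020 were highest there, where an even share would be 10%. CELA1 reached 2825 CPM in replicate 8 and at most 242 CPM in the others, a difference of 11.7-fold. C4BPA was 3.98-fold and CREB3L3 2.80-fold above the next NAM, whereas HAO2 was 1.02-fold above it. Values without this library are given beside several of those below. Among the tumors, group 2 replicate 11 had the highest sum of 6 of the 16 gene lists used below. These were the liver list (678 CPM, 3.30-fold the next sample), coagulation and complement, acute-phase signalling, copper and iron, leukocytes (1211 CPM) and fibroblasts (25558 CPM, 4.25-fold the next).

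Defining genes of liver, kidney and pancreas were at or near 0 in the NAMs. Of 26 liver genes found by name, 7 were at or under 3 counts in every NAM, among them APOA2, TTR, AMBP, CYP2E1, G6PC1 and SLC10A1. The plasma protein gene AHSG had a median of 0 and at most 0.346 CPM, and prothrombin (F2) at most 0.0787 CPM. ALB was not found under this name. APOA1, an apolipoprotein of high-density lipoprotein, was the liver-list gene of highest level per kb, with 25.1 to 163 CPM (median 70.7). Summed over the list, NAMs had 76.0 to 201 CPM, group 1 had 25.5 to 68.9 and group 2 had 44.4 to 678.

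For kidney, UMOD had 0 counts in every sample and SLC34A1 at most 3 counts in a NAM. In all, 9 of 24 kidney genes were at or under 3 counts in every NAM. PAX8, a transcription factor of kidney and thyroid, was the most abundant per kb, and the list summed to 12.2 to 50.2 CPM in NAMs. For pancreas, 11 of 21 acinar genes were found, of which SPINK1, GP2, CLPS, SYCN, PTF1A and BHLHA15 were at or under 3 counts in every NAM. PNLIP had at most 0.534 CPM and CPA1 3.98 to 9.38 CPM. CEL, a bile salt-dependent lipase, was the exception with 42.0 to 267 CPM and led the list.

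**Figure D1:**
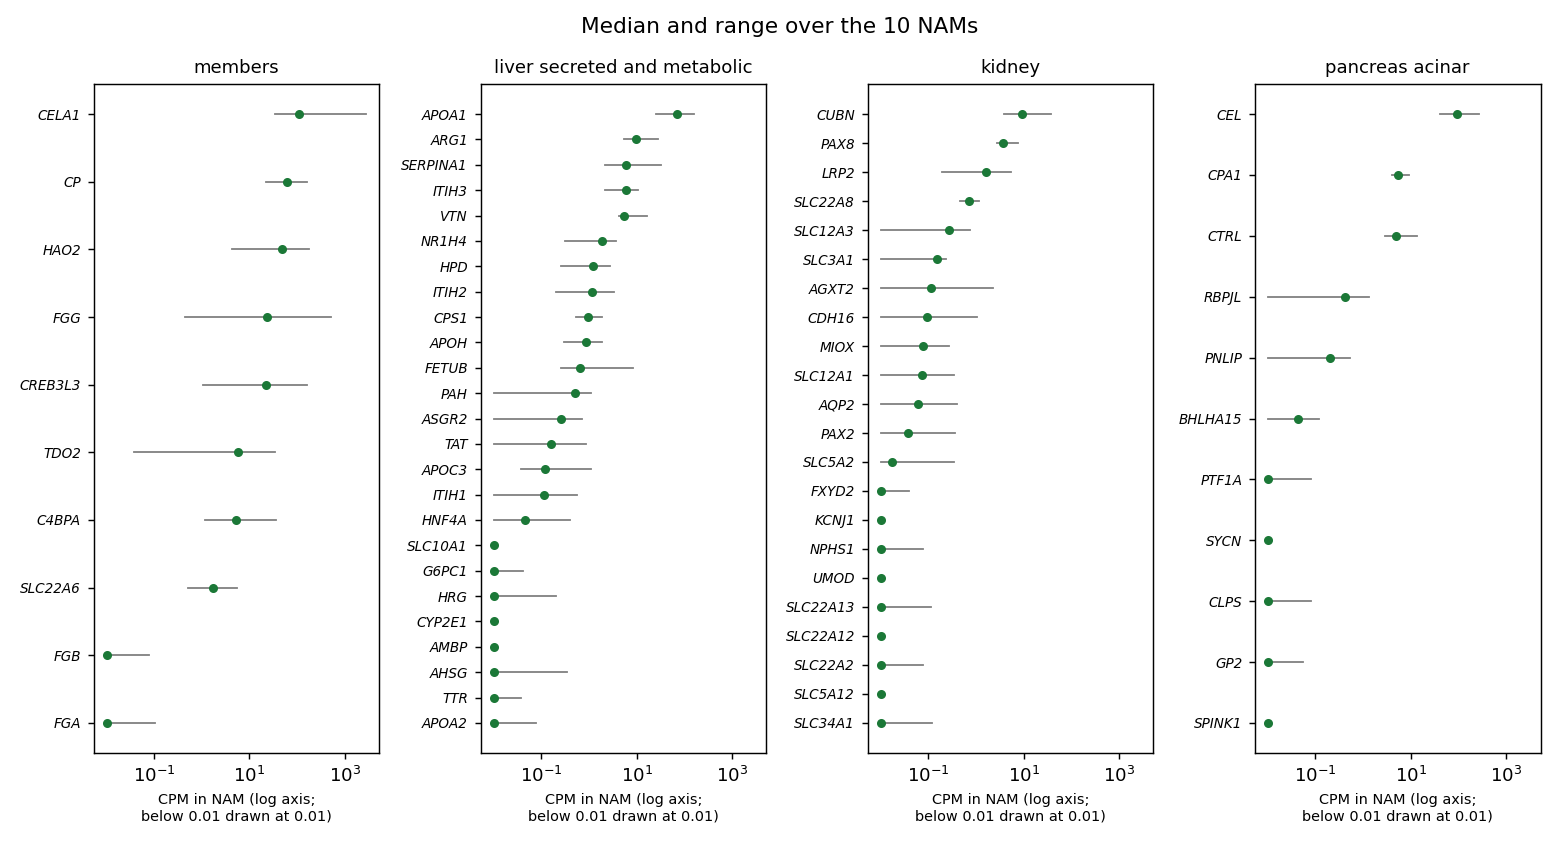
TMM-normalized CPM in the 10 NAMs on a log axis, for the 10 genes and for genes of the liver, kidney and pancreas lists. Points are medians and lines run from the lowest to the highest NAM. CELA1, CP, HAO2, FGG and CREB3L3 had medians above 20 CPM, while AHSG, TTR, UMOD and SLC34A1 had medians of 0.

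Ordered by mean log2 CPM per kb of exon length, the levels in NAMs ran from CELA1 (6.61) through HAO2 (5.12), FGG (3.96), CP (3.58), CREB3L3 (2.89), C4BPA (1.35) and TDO2 (1.16) to SLC22A6 (0.03). Each of these 8 differed from the next by less than the larger of their SDs over samples. FGB and FGA were at or under 3 counts in every NAM and are not ordered. In group 2 the order began with HAO2 (3.15) and CELA1 (2.95), which did not differ beyond their spread.

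The fibrinogen genes lay together on chromosome 15 of CanFam3.1, where FGB (52220611 to 52228250, plus strand), FGA (52236198 to 52246975, minus) and FGG (52261217 to 52269964, minus) spanned 49.4 kb. Only the gamma chain gene was measured above the 3-count level in NAMs. FGG had 12 to 10185 counts there, or 0.446 to 519 CPM with a median of 23.6. FGA had 0 counts in 7 of 10 NAMs and at most 2, and FGB had 0 in 6 and at most 3. The name of liver-type gene in normal samples therefore did not hold for FGA and FGB, for which no fold is given between NAMs and group 1. FGG was highest in NAM replicates 8, 7 and 4 (519, 383 and 215 CPM) and lowest in replicate 5, a range of 1163-fold between dogs of the same group.

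In tumors, FGG was at or under 3 counts in all 7 of group 1, with at most 2 counts. In group 2 it had 0.141 to 61.1 CPM (median 2.96), the highest in replicates 3 and 11, and 10 of 12 values lay within the NAM range. The NAM mean of 122 CPM (SD 187, n = 10) was 12.7-fold the group 2 mean of 9.65 (SD 17.3, n = 12) and at least 938-fold the level that 3 counts per library allow in group 1. Without NAM replicate 8 these folds were 8.12 and at least 601, and without group 2 replicate 3 the first was 24.6. FGB reached 18 counts in group 2 (1.02 CPM) and passed 3 counts in 5 of its 12 tumors. FGA had 0 counts in all 19 tumors.

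TDO2, which lay 1136 kb beyond FGG on chromosome 15 (53405957 to 53423958, plus), ranged from 0.0372 to 34.1 CPM in NAMs (median 5.87). Replicates 8, 7 and 4 were again the highest, and 2 of 10 NAMs were at or under 3 counts. Across NAMs, TDO2 and FGG had the highest correlation among the 28 pairs of the 8 genes (r = 0.77 and rho = 0.79 of log2 CPM, a description), and r was 0.71 without replicate 8. In group 1, 6 of 7 tumors were at or under 3 counts and the highest had 5. In group 2, 8 of 12 were, while replicates 1 and 10 had 1.69 and 1.52 CPM. TDO2 in tumors thus overlapped the lowest NAMs, and 16 of 19 PPGLs lay within the NAM range.

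C4BPA (chromosome 7, 6241102 to 6268910, plus) had 1.14 to 36.6 CPM in NAMs (median 5.10), with a highest value of 9.18 apart from replicate 8. All 19 PPGLs lay below every NAM. The share of all genes separated in this way is not given, here or for the genes below, so such separation is a description. Group 2 had 0.0481 to 0.758 CPM (median 0.410), and 6 of 7 group 1 tumors had at most 3 counts while replicate 7 had 19 (0.638 CPM). The NAM mean was 20.2-fold that of group 2, and at least 61.4-fold the level that 3 counts per library allow in the 6 low tumors of group 1. Without NAM replicate 8 these folds were 12.6 and at least 38.2.

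CP (chromosome 23, 43969435 to 44030369, minus) was the steadiest of the 8 genes among NAMs, with 22.0 to 158 CPM, a median of 62.7 and an SD of 0.76 on the log2 scale. Its gene overlaps HPS3 on the other strand, and the strand setting of the counting is not given in the sources used here, so reads of the shared stretch cannot be told apart. Group 2 had 1.68 to 9.72 CPM (median 6.68) and group 1 0.141 to 1.01 (median 0.583). The 3 groups did not overlap: all 12 tumors of group 2 lay below all NAMs and all 7 of group 1 below all of group 2. How often other genes separate the 3 groups in this way is not given here.

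CREB3L3 (chromosome 20, 55426813 to 55436882, minus) had 1.07 to 162 CPM in NAMs (median 22.3). It was lowest in replicate 7, in which FGG and TDO2 were second only to replicate 8. All 12 group 2 tumors were below every NAM, with at most 0.926 CPM. Group 1 replicate 2 had 3.20 CPM, within the NAM range, and the other 6 were below it. CREB3L3 and CELA1 had r = 0.17 across all NAMs and r = -0.69 without replicate 8.

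CELA1 (chromosome 27, 3542309 to 3560777, plus) was detected in every sample. NAMs had 34.0 to 2825 CPM (median 108), group 2 1.54 to 148 (median 10.3) and group 1 0.738 to 25.8 (median 5.32). All group 1 tumors and 10 of 12 group 2 tumors were below the lowest NAM, and replicates 1 and 10 of group 2 (148 and 53.7 CPM) were within the NAM range. The NAM mean was 20.4-fold the PPGL mean, or 6.24-fold without NAM replicate 8 and 32.7-fold without group 2 replicate 1.

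SLC22A6 (chromosome 18, 53736959 to 53744396, plus) was the least abundant of the 8, with 0.519 to 5.34 CPM in NAMs (median 1.73). It had 0 counts in all 7 tumors of group 1 and 0 to 10 counts in group 2, so that all PPGLs were below all NAMs. The NAM mean was 16.8-fold that of group 2, and at least 17.4-fold the level that 3 counts per library allow in group 1.

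HAO2 (chromosome 17, 56505506 to 56528954, plus) had the smallest fold of the 8 between the means of NAMs and group 2. NAMs had 4.31 to 180 CPM (median 48.5) and group 2 had 0.289 to 157 CPM (median 20.2), with 9 of 12 tumors inside the NAM range. Group 1 had 0 to 15 counts, and its highest tumor, replicate 6 with 0.875 CPM, also had the highest CYP11A1 of that group (34.4 CPM). The NAM mean was 2.62-fold that of group 2 (2.25-fold without NAM replicate 8 and 4.19-fold without group 2 replicate 10). The other 6 tumors of group 1 were at or under 3 counts, and the NAM mean was at least 651-fold the level that 3 counts per library allow in them.

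**Figure D2:**
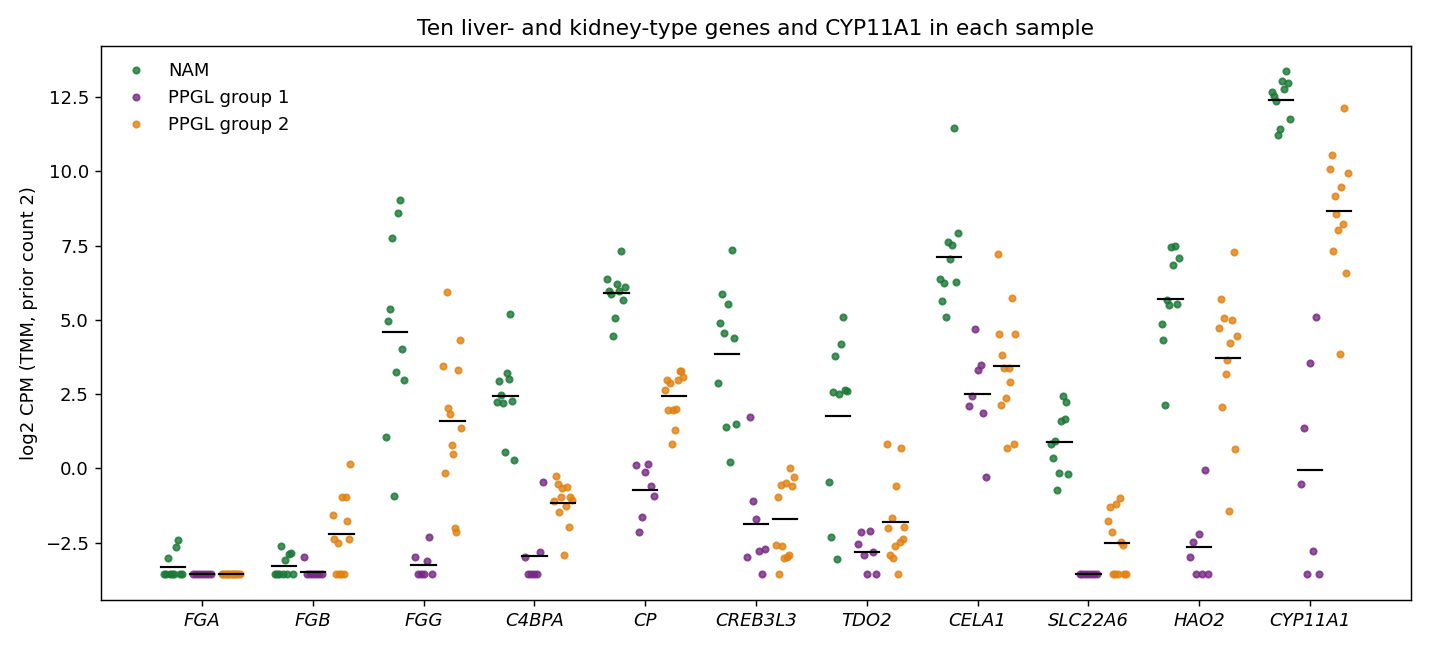
Log2 TMM-normalized CPM (prior count 2) of the 10 genes and CYP11A1 in each of 10 NAMs, 7 PPGLs of group 1 and 12 of group 2. Each point is a sample and each bar a group mean. CP separates the 3 groups, while HAO2 in group 2 reaches the NAM range and FGA is at the bottom of the scale in every tumor.

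Fitted across all genes, PPGLs were lower than NAMs by a log2 fold change (FC) of -6.35 (SE 0.77) for CREB3L3, -5.01 (0.79) for TDO2, -4.77 (0.61) for C4BPA and -4.64 (0.67) for SLC22A6. The values were -4.35 (0.74) for CELA1, -4.32 (1.08) for FGG, -4.07 (0.50) for CP and -2.05 (0.93) for HAO2. FGA and FGB did not pass the low-count filter. Over all 14766 genes tested by edgeR's quasi-likelihood test, 15.2% were lower and 22.3% higher at an FDR-adjusted p below 0.05. Since this contrast chose the 10 genes, no call is given for them. Without NAM replicate 8 the log2 FC was -5.63 for CREB3L3, -4.48 for TDO2, -4.09 for C4BPA, -3.68 for FGG and -2.64 for CELA1. Single tumors moved it too, to -5.33 for FGG without group 2 replicate 3 and to -2.77 for HAO2 without group 2 replicate 10. It was -5.03 for CELA1 without group 2 replicate 1 and -6.99 for CREB3L3 without group 1 replicate 2.

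The genes that work with these 10 were measured in the same contrast by lists written by hand. Counts in these lists are to be read beside the shares over all genes, 15.2% lower and 22.3% higher. The cortical list was the only one of 16 in which nearly all tested genes fell in PPGLs: 11 of 12 were lower and the median log2 FC was -3.17, against 0.13 over all genes tested. MRAP, the accessory protein of the corticotropin receptor, fell by a log2 FC of -3.63 (SE 0.89, adjusted p = 0.00200), and STAR by -3.19 (SE 0.55, adjusted p = 6.78e-05). Of 15 medullary genes 5 rose and 1, PNMT, fell (log2 FC -1.94, adjusted p = 0.0177), and PHOX2A rose most (2.17, adjusted p = 1.75e-07). The part of the cortical genes in the values of the 10 genes was not tested in this contrast.

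Of 12 tested liver-list genes, 7 fell and 2 rose in PPGLs, with a median log2 FC of -1.45. APOH, a phospholipid-binding plasma protein, fell by -3.25 (SE 0.63, adjusted p = 0.000236) from a NAM median of 0.851 CPM. SERPINA1, the main plasma inhibitor of neutrophil elastase, rose by 2.63 (SE 0.83, adjusted p = 0.0129), and by 1.31 (adjusted p = 0.0452) without group 2 replicate 11. Without NAM replicate 8, and likewise without group 2 replicate 11, 6 fell and 2 rose. APOH did not pass the filter without the latter.

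Among 18 tested genes of coagulation and complement, 3 fell and 1 rose, with a median log2 FC of -0.31. Over all genes 15.2% were lower and 22.3% higher, so the main count lower is near the share over all genes. Without group 2 replicate 11, 7 fell and 1 rose. C4BPB, the beta chain that pairs with C4BPA, fell by -1.68 (SE 0.46, adjusted p = 0.00495), as did PROS1, its anticoagulant partner (-0.76, adjusted p = 0.0413), and SERPIND1 (-2.47, adjusted p = 0.0128). The call of PROS1 was lost with 16 of 29 samples left out in turn, while its log2 FC was -0.70 or lower in each of these fits. MASP1 rose by 3.03 (adjusted p = 0.00956), of which 1.14 remained without group 1 replicate 2, where it had 141 CPM. F2, F9, PLG, C8B and C9 were at or under 3 counts in every NAM. In the list of acute-phase signalling, which hepatocytes use to raise fibrinogen and ceruloplasmin, 3 of 8 tested genes rose and 1 fell, or 3 and 3 without group 2 replicate 11. IL6 rose by 5.83 (SE 1.31, adjusted p = 0.000922) and SAA1 by 4.71 (adjusted p = 0.00445), or by 5.19 and 3.39 without group 2 replicate 11, while CEBPB fell by -1.28 (adjusted p = 0.0126). IL6 did not pass the low-count filter across NAMs alone. It was thus tested through its counts in tumors, and the exact size of its fold is not to be relied on. The name SAA1 occurs 2 times in the table, of which the first was used.

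Relatives and lipid targets of CREB3L3 were called in both directions, 3 of 9 lower and 1 higher. APOB, the structural protein of low-density lipoprotein, fell most: it had 38.1 to 515 CPM in NAMs (median 209), at most 28.9 in group 2 and at most 5.47 in group 1 (log2 FC -4.75, SE 0.52, adjusted p = 1.75e-07). CREB3L1 fell by -2.21 (adjusted p = 0.000261) and the activating protease MBTPS1 by -0.55 (adjusted p = 0.00218), while ATF6B rose by 0.33 (adjusted p = 0.0129). CREB3 was at 78.2 to 107 CPM in NAMs and was not called.

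Among genes of the other steps of tryptophan breakdown, 1 was lower and 2 were higher. Over all genes 15.2% were lower and 22.3% higher, so these counts are not read as a result about the pathway. Of 8 tested genes, 5 were not called, HAAO rose by 2.00 (adjusted p = 0.00182; 1.49 without group 1 replicate 2) and AADAT by 1.47 (adjusted p = 0.000223), and KYAT3 fell by -1.06 (adjusted p = 0.00131). ACMSD had no counts in any sample and QPRT was at or under 3 counts in every NAM. Around ceruloplasmin, the iron exporter SLC40A1 fell by -1.54 (SE 0.28, adjusted p = 9.58e-05) and STEAP3 by -1.45 (adjusted p = 0.000509), while TF rose by 1.57 (adjusted p = 0.0220, and 0.0505 without group 2 replicate 11) and FTL by 0.56 (adjusted p = 0.0219), and 9 of 13 tested genes of the list were not called. Of 10 tested peroxisomal genes, EHHADH (-1.71, adjusted p = 1.61e-06), HSD17B4 (-0.66, adjusted p = 0.000215) and SCP2 (-0.37, adjusted p = 0.00433) fell and none rose. HAO1, the relative of HAO2 in liver, was at or under 3 counts in every NAM.

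Of the kidney list, 7 of 24 genes were tested, and MIOX, an enzyme of the proximal tubule, rose by 4.39 (SE 0.96, adjusted p = 0.000792), and by 3.17 without group 2 replicate 11. MIOX did not pass the filter across NAMs alone either, so the same limit holds for its fold as for IL6. Among 3 tested genes of organic anion transport, ABCC4 rose by 2.41 (adjusted p = 0.000104). Of 3 tested acinar genes, CTRL (-2.28, adjusted p = 0.000714) and CEL (-0.88, adjusted p = 0.0210) fell, the latter not without NAM replicate 8 (adjusted p = 0.0778). In the lists of other cell types, 1 of 5 adipocyte genes fell (log2 FC -1.68, and -1.48 or lower with any sample left out). This call was lost with 20 of 29 samples left out in turn. In addition, 4 of 7 fibroblast genes rose, 3 of 7 endothelial genes fell, and of 8 leukocyte genes 2 fell and 1 rose. Collagen COL1A1 had the largest change among them (log2 FC 3.72, adjusted p = 0.00110). Without group 2 replicate 11 it was 2.74, and 3 fibroblast genes rose and 1 fell. Whether these cell types bear on the 10 genes was not tested.

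The comparison of group 1 with group 2 asked whether the genes differ between the tumor groups, which their choice did not use. Here 4 of the 10 passed the low-count filter, and 3 were lower in group 1 at an FDR-adjusted p below 0.1, beside 2.95% of 14666 genes called lower and 3.97% called higher. FGG and HAO2 passed the filter through their counts in group 2, being near 0 in group 1. For these the filter itself favors a call in this direction, so the count is not to be read as a share. Their adjusted p-values and their positions below group 2 are therefore given as a description only. The log2 FC was -3.27 for CP (SE 0.48, edgeR adjusted p = 0.00432), with all 7 group 1 tumors below all 12 of group 2 and a mean 9.87-fold lower. It was -7.53 for HAO2 (SE 1.30, adjusted p = 0.00555), with 6 of 7 tumors below all of group 2, and -6.86 without group 2 replicate 10. Without group 1 replicate 6, the 6 tumors left were at or under 3 counts. The group 2 mean of HAO2 was then at least 249-fold the level that 3 counts per library allow. For FGG, adjusted p was 0.00606, with 7 of 7 below all of group 2. Since FGG was at or under 3 counts throughout group 1, its level was at least 74.0-fold lower there, and at least 38.1-fold without group 2 replicate 3. CELA1 was not called (-1.52, SE 0.83, adjusted p = 0.326, and -0.68 without group 2 replicate 1). Of its group 1 tumors, 6 of 7 lay within the group 2 range.

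The 6 others (FGA, FGB, C4BPA, CREB3L3, TDO2 and SLC22A6) were too low in both groups to be tested with the filter. With no filter on low counts, 2 more were past the threshold, FGB (adjusted p = 0.0674) and SLC22A6 (adjusted p = 0.0688), each from at most 18 counts in a tumor. In group 1, FGB had at most 1 count and SLC22A6 had 0. The 3-count level bounds their folds only as at least 1.69 and 1.04, the latter 0.84 without group 2 replicate 8, so nothing is drawn from these calls. The tumor groups were drawn from the same expression values, so these p-values describe that split. Cortical genes moved with it: 11 of 12 were lower in group 1 (10 without group 2 replicate 10), with a median log2 FC of -5.72 against 0.03 over all genes tested, and their part in the lower CP, HAO2 and FGG was not tested. Lower in group 1 too were 1 of 8 tested liver genes, 1 of 13 of copper and iron and 2 of 16 of coagulation and complement, CFI among these (-1.59, adjusted p = 0.0356), as well as APOB (-2.32, adjusted p = 0.0403). The call of 1 of 7 kidney genes (log2 FC -3.09, or -1.76 without group 2 replicate 11) was lost with 9 of 19 tumors left out in turn.

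Across the 10 NAMs, CYP11A1 varied 4.41-fold (SD 0.72 on the log2 scale). As a description, log2 CPM of the genes against log2 CPM of CYP11A1 gave r = 0.87 and rho = 0.84 for SLC22A6, r = 0.81 and rho = 0.66 for CP, and r = 0.77 and rho = 0.82 for C4BPA. The others were lower: CREB3L3 r = 0.43, CELA1 r = 0.42, TDO2 r = 0.33, FGG r = 0.31 and HAO2 r = 0.20. FGA and FGB were at or under 3 counts and gave no value. Over the 14839 genes tested, r had a median of 0.01 and a 90th percentile of 0.74.

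Leaving out NAM replicate 8, which had the highest CYP11A1, narrowed the range of CYP11A1 to 3.46-fold and changed several of these values. SLC22A6 kept r = 0.88, CP had 0.75 and C4BPA 0.69, whereas CREB3L3 went to 0.24, TDO2 to 0.16, FGG to 0.11, CELA1 to 0.04 and HAO2 to 0.03. Without replicates 4 and 5, the NAMs farthest from the median of CYP11A1, r was 0.76 for SLC22A6, 0.87 for C4BPA and 0.48 for CP. Fitted slopes per log2 unit of CYP11A1 were 1.45 (SE 0.30) for SLC22A6, 1.42 (0.36) for C4BPA and 0.86 (0.20) for CP. That of CELA1 was 1.60 (0.60) and that of HAO2 0.53 (0.52). Without replicate 8 these slopes were 1.60, 0.88, 0.64, -0.23 and 0.28, in the same order, and that of C4BPA was 2.24 without replicate 4. Since this relation chose the genes, no call is given for them. Over all genes, 8.63% were called rising and 9.17% falling, and those rising numbered 431 without replicate 8 and 159 without replicate 4 in place of 1280. CYP11A1 covers a narrow range in NAMs, so a slope that is not called is not shown to be absent.

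The cortical list rose with CYP11A1 across NAMs in 10 of 12 genes, with a median slope of 0.93 against 0.00 over all genes, and in 8 without replicate 8. STAR had a slope of 0.90 (adjusted p = 0.00350). Of 15 medullary genes, 4 fell, among them PHOX2A (-0.57, adjusted p = 0.0318) and HAND2 (-0.69, adjusted p = 0.0135). The other 2, GATA3 (-0.92) and CHRNA3 (-0.75), fell more and were still called without replicate 8 (edgeR adjusted p = 0.0193 and 0.0492). The call of CHRNA3 was lost without replicate 4. Of 13 tested liver genes 1 rose, FETUB (1.68, adjusted p = 0.0226), and of 4 acinar genes 1, CTRL (0.85, adjusted p = 0.0242). Of 9 relatives and targets of CREB3L3, 2 rose, APOB among them (1.11, adjusted p = 0.0220). Over all genes 8.63% rose, so single calls are not read as a result about a list. The calls of PHOX2A, HAND2, FETUB, CTRL and APOB were lost without replicate 8. Their slopes were then -0.54, -0.65, 1.00, 0.82 and 1.04, in the same order, so that of FETUB moved most.

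Within group 2, the relation to CYP11A1 was not used in choosing the genes and was tested, over a 318-fold range of CYP11A1. HAO2 rose with it. From 0.289 CPM in replicate 7, where CYP11A1 had 14.3 CPM, it went to 157 CPM in replicate 10, where CYP11A1 had 4540 CPM. Pearson's r was 0.95 (permutation p = 1e-05, the smallest that 100000 resamples can give) and rho was 0.85 (permutation p = 0.00069). Without replicates 7 and 10, the tumors farthest from the median, r was 0.86. In the fit across genes the slope was 1.04 (SE 0.13, edgeR adjusted p = 0.00222), beside 0.444% of 15772 genes called rising and 0.0127% called falling. Without replicate 10 the slope was 1.08 and adjusted p 0.0647, so the call rests on that tumor while the slope does not.

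CELA1 followed CYP11A1 by rank in group 2 (rho = 0.96, permutation p = 1e-05, the smallest possible; r = 0.86, permutation p = 0.00038), and r was 0.86 without replicates 7 and 10. Its slope of 0.85 (SE 0.18) missed the threshold in the fit across genes (edgeR adjusted p = 0.0636). Replicate 1 lay above the line of the other tumors, with 148 CPM at a CYP11A1 of 1091 CPM, and without it the slope was 0.67 with an adjusted p of 0.00135.

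The other 7 genes measured gave no permutation p under 0.05 among the 9 relations computed in group 2. CP had r = 0.50 (permutation p = 0.0931) and r = 0.12 without replicates 7 and 10, with a slope of 0.16 (95% interval -0.04 to 0.37). FGG had r = -0.03 (permutation p = 0.928) and a slope of -0.29 (interval -0.93 to 0.35). C4BPA had a slope of 0.10 (interval -0.28 to 0.47), CREB3L3 0.05 (-0.32 to 0.43) and TDO2 0.21 (-0.17 to 0.59). SLC22A6 did not pass the filter and was above 3 counts in 4 of 12 tumors, with r = 0.35 (permutation p = 0.270), and FGB had r = 0.02 (permutation p = 0.957). The slopes of C4BPA and SLC22A6 in NAMs were not compared by a test with those in group 2, so a difference between the tissues was not tested.

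Group 2 replicate 10 gave the values side by side at a CYP11A1 level inside the NAM range. HAO2 (157 CPM) and CELA1 (53.7 CPM) were inside the NAM range there too, as were FGG (9.81 CPM) and TDO2 (1.52 CPM). CP (9.72 CPM), CREB3L3 (0.926), C4BPA (0.168) and SLC22A6 (0.0842) were below all 10 NAMs. This is a single tumor and a description. Across the 12 tumors of group 2, median CPM per 1000 CPM of CYP11A1 was 10.7 for CP and 0.821 for C4BPA. In NAMs these medians were 10.9 and 1.07. CREB3L3 had 0.205 in group 2 and 3.80 in NAMs, and SLC22A6 0.106 and 0.294. CREB3L3 was at or under 3 counts in 6 of the 12 tumors and SLC22A6 in 8. The part of cortical cells in these values was not tested.

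Of the cortical list, 11 of 12 genes rose with CYP11A1 in group 2, with a median slope of 0.78 against 0.00 over all genes. Without replicate 10, 5 of 12 were called and the median slope was 0.77. CYP17A1 had 1.19 (adjusted p = 7e-05) and STAR 0.67 (adjusted p = 0.000750). The slope of HAO2 stood beside these, and the part of cortical cells in it was not tested. APOB rose as well (0.69, adjusted p = 0.0106), a call lost without replicate 7 (slope 0.53). Of 8 tested genes of the kidney list 1 rose (slope 0.78), and its call was lost without replicate 7 or 10 (slope 0.68 without replicate 10). No gene of the medullary, liver, pancreas, coagulation, peroxisomal, leukocyte, endothelial or fibroblast lists was called in this fit.

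**Figure D3:**
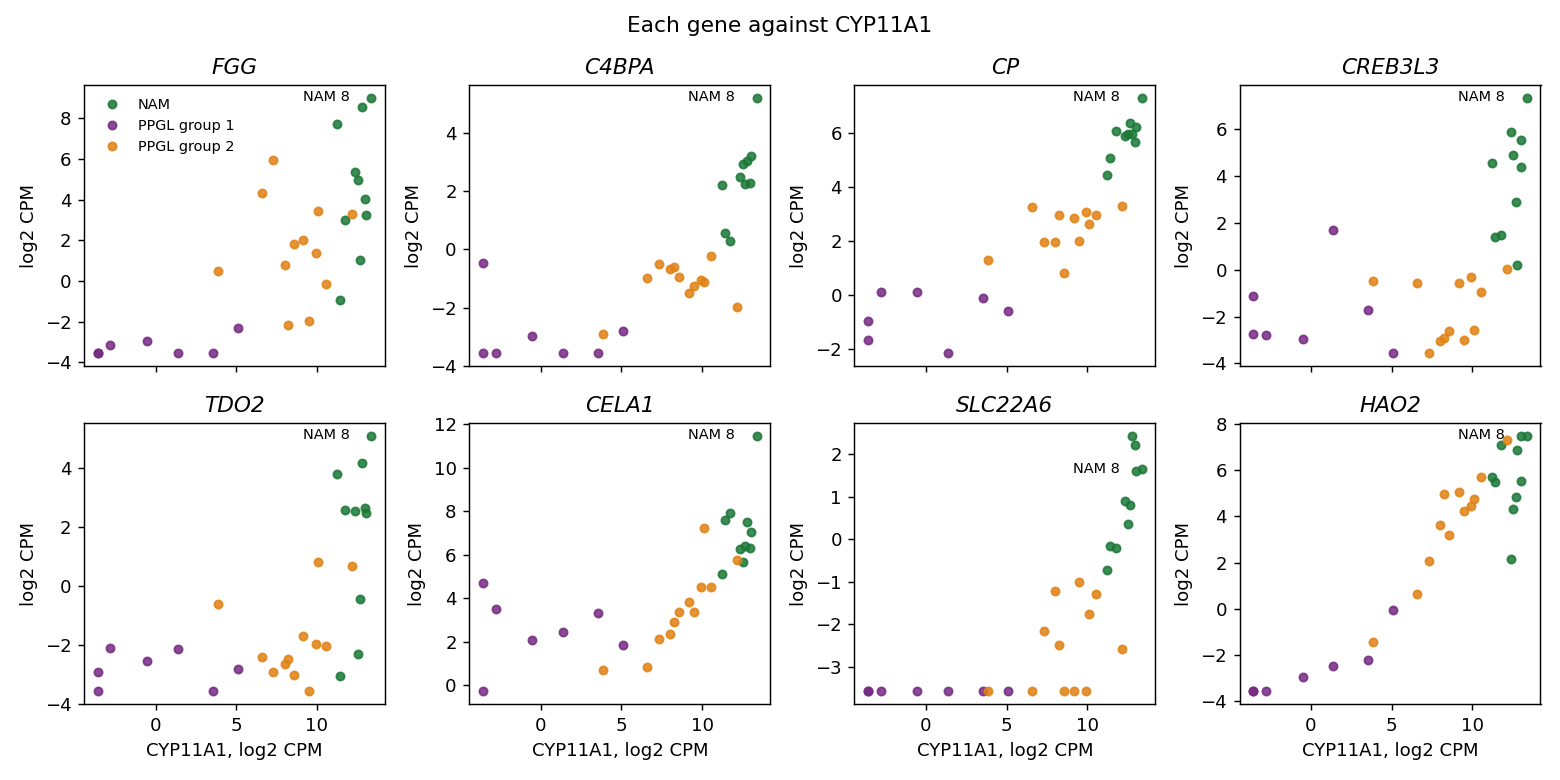
Log2 TMM-normalized CPM (prior count 2) of 8 genes against that of CYP11A1, with 1 point per sample for 10 NAMs, 7 PPGLs of group 1 and 12 of group 2. HAO2 rises along the group 2 points (r = 0.95), while FGG shows no such course (r = -0.03). NAM replicate 8 is marked and has the highest CELA1.

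In group 1, 6 of the 10 genes had a tumor above 3 counts. HAO2 had r = 0.91 and rho = 0.97 with CYP11A1 (exact permutation p = 0.00119 for both, n = 7), but only replicate 6 was above 3 counts (15 counts), so the relation is one of counts near 0. For the other 5, exact permutation p lay between 0.609 for C4BPA and 0.991 for CREB3L3, with r of -0.30 and 0.01. FGA, FGB, FGG and SLC22A6 were at or under 3 counts in all 7.

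Likeness of pattern across the 10 NAMs was measured as r of log2 CPM with 11991 named genes of at least 1 CPM. SLC22A6 was most like SCIN (r = 0.97), RPL27A (0.96) and FXYD1 (0.94), and CP most like TSPAN31, ASNSD1 and MPV17 (0.98, 0.98 and 0.97). HAO2 was most like CLEC11A (0.96), INPP1 (0.94) and RNF121 (0.92). CREB3L3 had ARL6IP6 (0.94), FAM189A1 (0.94) and KLF11 (0.93), and C4BPA had DAZAP1, ZBED9 and TANGO2 (0.94, 0.94 and 0.93). TDO2 was most like SEC61B (0.93) and GDAP2 (0.86), and FGG most like TMEM141 (0.85), DOLPP1 (0.84) and WBP11 (0.84). CELA1 had LARP7 (0.91), SCP2 (0.91) and CNPY4 (0.90), which fell to 0.72, 0.76 and 0.57 without replicate 8. With 10 samples and so many genes, high values of r are to be had by selection alone, and nothing is drawn from them on shared function.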

How the data were processed

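The authors deposited raw counts of reads over the exons of each Ensembl gene, from stranded mRNA libraries. The submitters' processing notes name CanFam3.1, STAR, FastQC, Picard and HTSeq, whereas the deposited exon counts used here are labelled featureCounts. Handling of reads that fit several genes is not given in the sources used here. The 10 genes, the gene lists and the comparisons were chosen with earlier results of these data known. Counts were analysed in R 4.3.3 with edgeR 4.0.16 (filterByExpr with minimum count 10 and total 15, TMM, quasi-likelihood F test, Benjamini-Hochberg over all genes tested). Thresholds were 0.05, and 0.1 between tumor groups. Slopes used log2 CPM of CYP11A1 (prior count 2) as covariate, CYP11A1 itself left out. Pearson and Spearman correlations in tumors used two-sided tests of 100000 permutations, or all 5040 pairings in group 1. Named genes were the 10, CYP11A1, 11 organ-defining genes, per list the 3 most abundant in NAMs per kb and up to 4 called genes of largest log2 FC, and per gene the 3 most alike; not all of these are printed. Alternatives were DESeq2 1.42.0 size factors and Wald test, library size, 2 other filters, the Mann-Whitney U-test, a replicate block, other prior counts, a cortical score and each sample left out. After seeing the data, list genes and folds were also given with single samples left out, and GATA3 and CHRNA3 were named. The fits were tested on simulated data. Steps in Python used numpy 2.4.6 and pandas 2.3.3.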

Additional observations from a re-analysis of the deposited data

Results flagged for a closer look

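Among 16 pairs of gene and group looked at for a sample far from its group (NAMs and group 1), 3 had one, where the critical value used flags about 1 in 20 groups by chance. The pairs share libraries and are not independent. CELA1 in NAM replicate 8 was the highest of 10, with a gap to the next sample of 0.556 of the whole range on the log2 scale (2825 CPM). C4BPA in PPGL group 1 replicate 7 was the highest of 7, with a gap of 0.755 of the range, from 19 counts (0.638 CPM). HAO2 in PPGL group 1 replicate 6 was the highest of 7, with a gap of 0.610 of the range, from 15 counts (0.875 CPM). The tumor values rest on few counts. Causes were not tested.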

How the results depend on the processing

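In PPGLs against NAMs, 2009 to 2407 of all genes were called lower with each sample left out. Between the tumor groups, 3 genes were called without any single tumor, and 5 with no filter on low counts. In simulated data DESeq2 made more false calls than its threshold allows. All genes called lower in group 1 were 877 with DESeq2's Wald test, 226 with the Mann-Whitney U-test and 269 to 485 leaving out a tumor. Replicate numbers count different animals in each group, and same-numbered samples of the tumor groups did not deviate together (r -0.09 to 0.05, 7 pairs). With a replicate block, 37 genes in all were called lower in group 1, and 2 of the 10, since CP was lost (log2 FC -2.94, adjusted p = 0.142). Across NAMs, genes rising with CYP11A1 numbered 734 by library size, 2011 with DESeq2 and 159 to 1703 leaving out a NAM. FGG, TDO2 and CELA1 changed sign without NAM replicate 8 (slopes -0.149, -0.0662 and -0.228) and had highest slopes of 4.02, 1.92 and 2.03. In group 2, 2 of the 10 were called with DESeq2 and with the cortical score in place of CYP11A1 (HAO2 and CELA1), DESeq2 called 164 genes rising, and leaving out a tumor gave 0 to 2 of the 10 and 14 to 76 genes. FGG had slopes of -0.660 to 0.000831 there, the last without replicate 3. In group 1, a prior count of 0.5 turned the near-zero r of CREB3L3 from 0.00695 to -0.0840 and that of TDO2 from -0.0620 to 0.0318 (exact permutation p = 0.873 and 0.937). The causes were not tested. Added after seeing the data, coagulation and complement genes lower in PPGLs numbered 7 without group 2 replicate 11, kidney genes lower numbered 2 without group 2 replicate 10, and the list counts without NAM replicate 8 were 6 liver, 0 kidney and 1 acinar genes lower in PPGLs, and 0 liver, 0 coagulation and 0 acinar genes rising across NAMs. Genes at or under 3 counts cannot be compared at this depth.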

Other observations

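The summed level of the organic anion transport list, led by ABCC4, had sums of 2.67 to 5.98 CPM in NAMs, 5.77 to 69.2 in PPGL group 1 and 2.89 to 40.5 in PPGL group 2.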
